A study of Arabidopsis thaliana with 8 samples.

Results

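The genes described here are the phytochrome-interacting factors (PIFs) of Arabidopsis thaliana and the helix-loop-helix (HLH) proteins that bind and block them. The 10 genes were chosen by name and locus: 7 PIF genes, PIF1 (AT2G20180), PIF3 (AT1G09530), PIF4 (AT2G43010), PIF5 (AT3G59060), PIF6 (AT3G62090), PIF7 (AT5G61270) and PIF8 (AT4G00050, annotated as UNE10), and 3 antagonist genes, HFR1 (AT1G02340), PAR1 (AT2G42870) and PAR2 (AT3G58850). All 10 were found among the 27628 loci of the tables, and all 10 passed the filter on low counts that left 20695 loci for testing. RNA was sequenced from whole seedlings of ecotype Col-0 with 4 genotypes: wild type (WT), agb1 (allele agb1-2, lacking the G protein beta subunit AGB1), hy5 (lacking a light-responsive bZIP transcription factor, allele unstated in the labels) and the cry1 cry2 double mutant, which lacks both cryptochrome blue-light receptors. All 4 were handled alike: 3 days of cold at 4 degrees, 12 h of white light and 4.5 days of blue light on medium with 1% sucrose. Each genotype had 2 libraries that the labels call biological replicates. The p-values set a difference between genotypes against the spread between such replicates, estimated from all 8 libraries together.

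PIFs are basic helix-loop-helix (bHLH) transcription factors that bind G-box DNA, promote stem elongation and hold back pigment and plastid genes in darkness and shade. Light-activated phytochromes bind PIF proteins and lead most of them to degradation, and cryptochromes bind PIF4 and PIF5 in blue light. HFR1, PAR1 and PAR2 carry an HLH region without working DNA contacts, pair with PIFs and keep them off DNA. Most of this control acts on the proteins, whereas the measurements here are of transcripts.

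The DNA just before 5 of the genes is shown because PIF4 with PIF5 and PAR1 with PAR2 are the closest pairs of the 10 genes in coding sequence, and HFR1 is the antagonist that changed in every mutant. Each line gives the 300 bases before the annotated gene start in RefSeq's TAIR10.1 assembly, 5′ to 3′ on the strand of the gene. Capitals mark a G-box (CACGTG, the PIF-binding hexamer), a PBE-box (CACATG or CATGTG, a second hexamer bound by PIFs) or the ACGT core shared by G-boxes and the sites of bZIP factors such as HY5, searched on both strands.
PIF4 (chr2:17885801-17886100, plus strand): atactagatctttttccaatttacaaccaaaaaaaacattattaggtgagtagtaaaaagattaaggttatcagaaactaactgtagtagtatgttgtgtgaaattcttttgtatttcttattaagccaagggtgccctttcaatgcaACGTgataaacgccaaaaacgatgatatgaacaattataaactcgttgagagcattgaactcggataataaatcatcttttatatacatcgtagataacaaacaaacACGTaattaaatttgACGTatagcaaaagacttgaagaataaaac
PIF5 (chr3:21830838-21831137, minus strand): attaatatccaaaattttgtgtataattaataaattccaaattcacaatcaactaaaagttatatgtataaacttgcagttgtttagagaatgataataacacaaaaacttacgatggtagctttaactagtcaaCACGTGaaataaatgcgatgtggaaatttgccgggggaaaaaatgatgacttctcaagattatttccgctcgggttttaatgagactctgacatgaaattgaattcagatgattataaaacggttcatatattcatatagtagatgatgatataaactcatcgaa
HFR1 (chr1:467881-468180, minus strand): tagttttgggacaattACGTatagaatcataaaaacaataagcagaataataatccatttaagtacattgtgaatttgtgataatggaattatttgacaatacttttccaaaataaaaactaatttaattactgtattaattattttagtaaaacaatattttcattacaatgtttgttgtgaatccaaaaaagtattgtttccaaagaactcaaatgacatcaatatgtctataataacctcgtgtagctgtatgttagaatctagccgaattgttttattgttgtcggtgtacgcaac
PAR1 (chr2:17837619-17837918, minus strand): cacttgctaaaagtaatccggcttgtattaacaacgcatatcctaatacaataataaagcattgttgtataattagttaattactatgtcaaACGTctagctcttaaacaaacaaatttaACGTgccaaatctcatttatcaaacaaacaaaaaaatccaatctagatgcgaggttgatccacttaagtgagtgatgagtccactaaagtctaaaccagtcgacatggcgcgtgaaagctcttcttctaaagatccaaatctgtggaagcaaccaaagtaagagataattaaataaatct
PAR2 (chr3:21760391-21760690, minus strand): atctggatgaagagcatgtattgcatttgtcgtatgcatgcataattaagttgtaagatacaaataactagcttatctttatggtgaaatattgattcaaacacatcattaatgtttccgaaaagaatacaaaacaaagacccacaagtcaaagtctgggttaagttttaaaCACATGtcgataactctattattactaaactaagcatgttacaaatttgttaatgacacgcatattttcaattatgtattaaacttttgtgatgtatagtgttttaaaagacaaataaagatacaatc

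A G-box lay in the window of 1 of the 10 genes, PIF5, at 160 to 165 bases before the start. Of the 27418 windows taken in the same way before protein-coding genes of the dataset, 7.08% held one. A PBE-box lay in the window of 1 gene, PAR2, at 123 to 128 bases before the start, against 13.1% of all windows. The ACGT core, which every G-box contains, was found in 5 of the 10 windows (PIF4 with 3, PAR1 with 2, and 1 each in PIF5, PIF7 and HFR1) against 48.9% of all windows. PAR1 and PAR2 thus differed in these letters: PAR1 had 2 ACGT cores and no PBE-box, and PAR2 had no ACGT core and 1 PBE-box. These matches are letters in a window and no measure of binding.

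The genes lie on all 5 chromosomes (TAIR10.1). PAR1 (chr2:17836416-17837618) lies 48482 bases from PIF4 (chr2:17886101-17889087), with 18 genes between them, and PAR2 (chr3:21759350-21760390) lies 67514 bases from PIF5 (chr3:21827905-21830837), with 24 genes between them. In global alignments of the coding sequences, identical bases made up 76.2% of the longer sequence for PAR1 with PAR2 and 65.6% for PIF4 with PIF5, and at most 55.1% for each of the other pairs. The longest exact stretch shared by any pair of the 10 coding sequences was 28 bases (PIF1 and PIF4). PIF1, PIF6 and PIF7 overlap other annotated genes (AT2G20170, AT3G09745 with AT3G62080, and AT5G61260), and since use of strand in counting is not stated, reads there cannot be assigned with certainty.

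Libraries held 15651218 to 23098347 counted reads, and log2 levels of replicate libraries correlated across loci at r of 0.9927 to 0.9941, which describes closeness only, since loci are not independent. CRY2 was close to absent in cry1 cry2, at 0.196 ± 0.0429 against 221 ± 4.35 CPM (read counts scaled to library size with TMM factors; mean ± SD, n = 2) in WT, and CRY1 and AGB1 were lower in their own mutants. HY5 reads in the libraries labelled hy5 were 14.5 ± 0.697 CPM against 15.4 ± 0.663 in WT, so they do not check that label. Markers of plant parts differed between genotypes, and not all in the same way within a list. The summed CPM of 4 shoot photosynthesis genes was 10706 to 11160 in WT, 13994 to 14013 in agb1, 9604 to 9768 in hy5 and 1605 to 1615 in cry1 cry2. Against WT 3 of these 4 were higher in agb1 and all 4 lower in cry1 cry2, whereas in hy5 3 were higher (RBCS1A, RCA, CA1) and LHCB1.2 alone was lower (-2.85 ± 0.06), which sets the hy5 sum. Summed CPM of 6 root genes was 4374 to 4389 in WT, 2981 to 3000 in agb1, 6831 to 6982 in hy5 and 7168 to 7298 in cry1 cry2, and PYK10 supplied 94.7% to 95.8% of it. Of the 5 root genes tested, 4 were lower in agb1, 3 were higher in cry1 cry2, and in hy5 2 were higher (PYK10, CASP1) and 2 lower (COBL9, RHD2; median 0.011). Seed storage genes (4) summed to 4.74 to 6.39 CPM in WT, 1.19 to 1.24 in agb1, 4.34 to 4.61 in hy5 and 49.2 to 69.8 in cry1 cry2. The root gene NRT2.1 was at or near 0 in all libraries. What part these differences have in the results below was not tested, and in whole seedlings fewer cells of a type and less RNA per cell cannot be told apart.

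Per length, HFR1 was the most abundant of the 10 transcripts in WT and PIF6 the least. Levels between genes were compared on the authors' RPKM, reads scaled to coding length and library total, summed over the transcript models of a locus. In WT, HFR1 had 146 ± 7.18 RPKM, PAR1 103 ± 0.982, PIF4 87.3 ± 1.81, PIF5 70.4 ± 0.513 and PAR2 41.1 ± 7.22. PIF8 (26.2 ± 0.417), PIF3 (26.0 ± 1.05) and PIF1 (21.3 ± 0.815) came next, and PIF7 (8.88 ± 2.16) and PIF6 (8.85 ± 0.0120) were lowest. PIF8 and PIF3 did not differ beyond their spread, nor did PIF7 and PIF6. Taken by the most-read model alone, the order at the top was PAR1 (103), HFR1 (74.7), PAR2 (41.1) and PIF4 (18.0), because reads of a locus were divided over its models: those of HFR1 held 49.9% to 50.1% each and those of PIF5 24.7% to 25.2% each, so that the most-read model understates loci with several models.

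**Figure D1:**
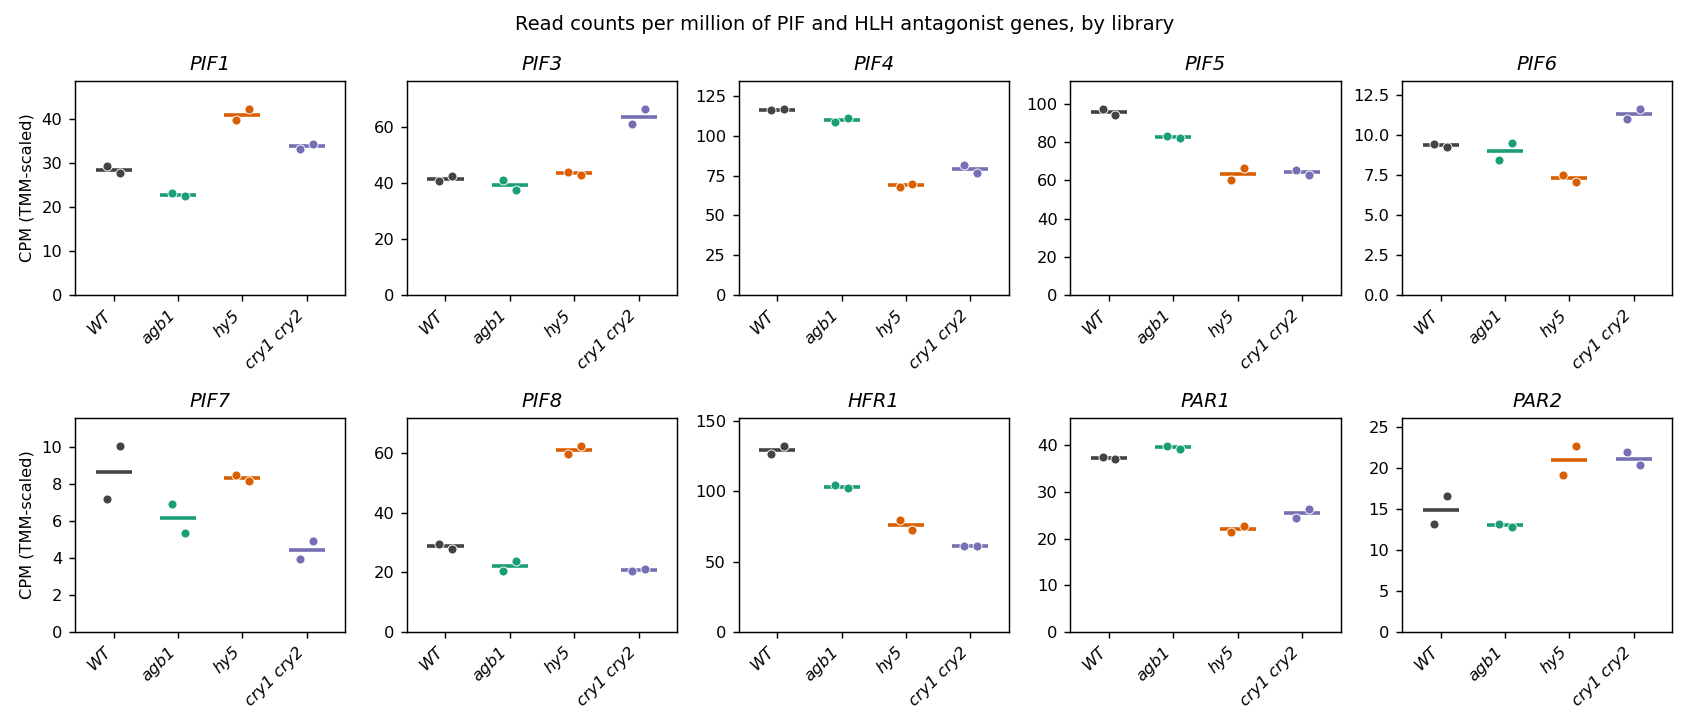
TMM-scaled CPM (y axis, from 0) of each of the 10 genes in WT, agb1, hy5 and cry1 cry2; points are libraries (2 per genotype) and bars their means. PIF8 was highest in hy5, and HFR1 fell from WT through agb1 and hy5 to cry1 cry2. In hy5 and cry1 cry2 PAR1 was lower and PAR2 higher than in WT, so that their levels lay closer together.

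HFR1, the atypical bHLH protein that pairs with PIF4 and PIF5 and is itself degraded through COP1, was lower than WT in every mutant. The libraries had 126 and 132 CPM in WT, 104 and 102 in agb1, 79.5 and 72.8 in hy5, and 61.0 and 61.3 in cry1 cry2. The 4 genotypes were ordered without overlap, from WT down to cry1 cry2. Against WT the log2 fold change was -0.32 ± 0.06 (SE) in agb1 (edgeR quasi-likelihood test, Benjamini-Hochberg adjusted p = 1.05e-04), -0.77 ± 0.06 in hy5 (adjusted p = 6.00e-12) and -1.08 ± 0.06 in cry1 cry2 (adjusted p = 1.15e-15). Each step between mutants also passed the test: HFR1 was higher in agb1 than in hy5 (0.44 ± 0.06, adjusted p = 3.29e-07) and higher in hy5 than in cry1 cry2 (0.31 ± 0.06, adjusted p = 1.02e-04). With library sizes alone in place of TMM the last of these was 0.14 (adjusted p = 0.0609).

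PAR1 and PAR2, small HLH proteins that bind PIF4 and restrain shade growth, moved in opposite directions in hy5 and in cry1 cry2. PAR1 had 37.4 and 37.1 CPM in WT, 39.9 and 39.2 in agb1, 21.5 and 22.7 in hy5, and 24.5 and 26.4 in cry1 cry2. PAR2 had 13.1 and 16.5 CPM in WT, 13.2 and 12.8 in agb1, 19.1 and 22.7 in hy5, and 21.9 and 20.4 in cry1 cry2. All 4 libraries of hy5 and cry1 cry2 were thus below WT for PAR1 and above WT for PAR2, while agb1 lay close to WT for both. PAR1 fell by 0.75 ± 0.07 on the log2 scale in hy5 (edgeR adjusted p = 1.97e-09) and fell by 0.55 ± 0.07 in cry1 cry2 (adjusted p = 2.43e-07). PAR2 rose by 0.51 ± 0.10 in hy5 (adjusted p = 2.15e-04) and by 0.52 ± 0.10 in cry1 cry2 (adjusted p = 1.21e-04). These 4 calls held under all 16 alternatives. In agb1 neither was called (PAR1 0.088 ± 0.070, adjusted p = 0.465; PAR2 -0.18 ± 0.12, adjusted p = 0.346), and the agb1 libraries overlapped those of WT for PAR2.

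On the RPKM scale the ratio of PAR2 to PAR1 within a library, which no scaling between libraries alters, was 0.352 and 0.446 in WT and 0.331 and 0.327 in agb1. It was 0.891 and 0.998 in hy5 and 0.894 and 0.772 in cry1 cry2. PAR2 made up 14.1 ± 1.74% of the summed RPKM of the 3 antagonist genes in WT, 13.7 ± 0.0923% in agb1, 29.5 ± 1.65% in cry1 cry2 and 28.2 ± 2.85% in hy5. In cry1 cry2 the HFR1 share was 34.9 ± 0.0314% against 50.4 ± 0.197% in WT, and there PAR1 and HFR1 stood at near equal levels (79.7 ± 4.89 and 78.4 ± 1.03 RPKM).

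PIF4 and PIF5, which drive elongation and auxin synthesis in shade and warmth, both fell in hy5 and in cry1 cry2. PIF4 had 116 and 117 CPM in WT, 109 and 111 in agb1, 68.0 and 70.0 in hy5, and 81.7 and 76.5 in cry1 cry2. PIF5 had 97.2 and 94.1 CPM in WT, 82.9 and 82.1 in agb1, 60.4 and 66.4 in hy5, and 65.3 and 62.9 in cry1 cry2. For both genes every library of hy5 and cry1 cry2 lay below every library of WT and agb1. PIF4 changed by -0.75 ± 0.06 in hy5 (edgeR adjusted p = 6.40e-12) and by -0.56 ± 0.06 in cry1 cry2 (adjusted p = 1.28e-09). PIF5 changed by -0.59 ± 0.06 in hy5 (adjusted p = 2.15e-09) and by -0.58 ± 0.06 in cry1 cry2 (adjusted p = 1.71e-09).

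Changes of the pair in agb1 were smaller. PIF5 fell by 0.21 ± 0.06 on the log2 scale in agb1 (edgeR adjusted p = 0.0103), and PIF4 was not called there (-0.085 ± 0.056, adjusted p = 0.353); the difference between the 2 genes was not tested. The PIF5 call held in 11 of 16 alternatives. It was lost with DESeq2 (-0.20, DESeq2 adjusted p = 0.0647) and by the most-read model (-0.20, edgeR adjusted p = 0.129). It was also lost when WT replicate 1 (-0.19), agb1 replicate 1 (-0.22) or agb1 replicate 2 (-0.21) was left out. Between hy5 and cry1 cry2, PIF4 was lower in hy5 (-0.20 ± 0.06, edgeR adjusted p = 0.00747). That call was lost by the most-read model (-0.13, edgeR adjusted p = 0.284). It was also lost when cry1 cry2 replicate 1 (-0.14) or hy5 replicate 1 (-0.18) was left out. PIF5 did not pass the test in that comparison (-0.016 ± 0.062, adjusted p = 0.866).

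PIF8, a phytochrome-binding member far less studied than PIF4, had the widest range of the 10 genes and was the 1 PIF that rose more than 2-fold. Its libraries had 29.5 and 27.9 CPM in WT, 20.5 and 23.8 in agb1, 59.5 and 62.5 in hy5, and 20.5 and 21.0 in cry1 cry2. Only the hy5 libraries stood above WT, at 2.12-fold, and those of agb1 and cry1 cry2 lay below WT and overlapped each other. The log2 fold change against WT was 1.09 ± 0.07 in hy5 (edgeR adjusted p = 2.77e-13), -0.47 ± 0.08 in cry1 cry2 (adjusted p = 1.82e-05) and -0.38 ± 0.08 in agb1 (adjusted p = 0.00120). Without agb1 replicate 1 the last was -0.27 (adjusted p = 0.0884). Between hy5 and cry1 cry2 PIF8 differed by 1.56 ± 0.08 (adjusted p = 1.14e-16), or 2.94-fold, the largest difference of any of the 10 genes in any of the 6 comparisons. On the RPKM scale PIF8 was below PIF4 in WT (ratio 0.308 and 0.292 in the 2 libraries) and level with it in hy5 (1.05 and 1.08).

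PIF1, which restrains germination and chlorophyll synthesis, was highest in hy5 and lowest in agb1. It had 29.4 and 27.6 CPM in WT, 23.1 and 22.5 in agb1, 39.7 and 42.3 in hy5, and 33.2 and 34.3 in cry1 cry2. No 2 genotypes overlapped. PIF1 rose by 0.52 ± 0.07 on the log2 scale in hy5 (edgeR adjusted p = 6.72e-07) and by 0.24 ± 0.07 in cry1 cry2 (adjusted p = 0.00683), and changed by -0.32 ± 0.08 in agb1 (adjusted p = 0.00390). In cry1 cry2 the PIF1 rise missed the threshold when WT replicate 2 (0.20, adjusted p = 0.0779) or cry1 cry2 replicate 2 (0.22, adjusted p = 0.0511) was left out, and the lower PIF1 of agb1 missed it when WT replicate 1 was left out (-0.27, adjusted p = 0.0716).

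PIF3, the first member found to bind phytochrome B, rose in cry1 cry2. Its libraries had 40.9 and 42.4 CPM in WT, 41.0 and 37.7 in agb1, 44.1 and 43.1 in hy5, and 61.1 and 66.6 in cry1 cry2. The cry1 cry2 libraries stood above all 6 others. The log2 fold change was 0.62 ± 0.07 in cry1 cry2 (edgeR adjusted p = 3.59e-09), 0.064 ± 0.068 in hy5 (adjusted p = 0.476) and -0.079 ± 0.070 in agb1 (adjusted p = 0.524). PIF3 in cry1 cry2 was also above hy5 (hy5 against cry1 cry2 -0.55 ± 0.07, adjusted p = 5.00e-08) and above agb1 (agb1 against cry1 cry2 -0.69 ± 0.07, adjusted p = 5.00e-10).

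PIF6 and PIF7 were the weakest transcripts. PIF6, linked to seed dormancy, had 9.43 and 9.25 CPM in WT, 8.47 and 9.48 in agb1, 7.51 and 7.09 in hy5, and 11.02 and 11.6 in cry1 cry2, so that hy5 lay below and cry1 cry2 above all other libraries. It differed most clearly between these mutants (hy5 against cry1 cry2 -0.63 ± 0.12, edgeR adjusted p = 1.11e-04). Against WT it changed by -0.36 ± 0.13 in hy5 (adjusted p = 0.0220) and by 0.28 ± 0.12 in cry1 cry2 (adjusted p = 0.0492). The first of these calls held in 11 of 16 alternatives. It was lost with DESeq2 (-0.36, DESeq2 adjusted p = 0.130) and by the most-read model (-0.43, edgeR adjusted p = 0.139). It was also lost when WT replicate 1 (-0.34), WT replicate 2 (-0.37) or hy5 replicate 2 (-0.32) was left out. The second call held in 4 of 16 alternatives, with adjusted p up to 0.307. In agb1 PIF6 was not called (-0.065 ± 0.12, adjusted p = 0.797), and its libraries overlapped WT.

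PIF7, a shade and warmth factor, had 7.20 and 10.1 CPM in WT, 6.94 and 5.36 in agb1, 8.51 and 8.16 in hy5, and 3.93 and 4.93 in cry1 cry2. The WT libraries were far apart, and those of hy5 lay between them. PIF7 fell in cry1 cry2 (-0.95 ± 0.17, edgeR adjusted p = 2.81e-05), a call that held under all 16 alternatives with values of -1.19 to -0.70. In agb1 it was called at the margin (-0.46 ± 0.16, adjusted p = 0.0499), and 9 of 16 alternatives lost that call. Without WT replicate 2 the agb1 value was -0.21 (adjusted p = 0.557), and without agb1 replicate 2 it was -0.30 (adjusted p = 0.361). In hy5 PIF7 was not called (-0.043 ± 0.15, adjusted p = 0.847).

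**Figure D2:**
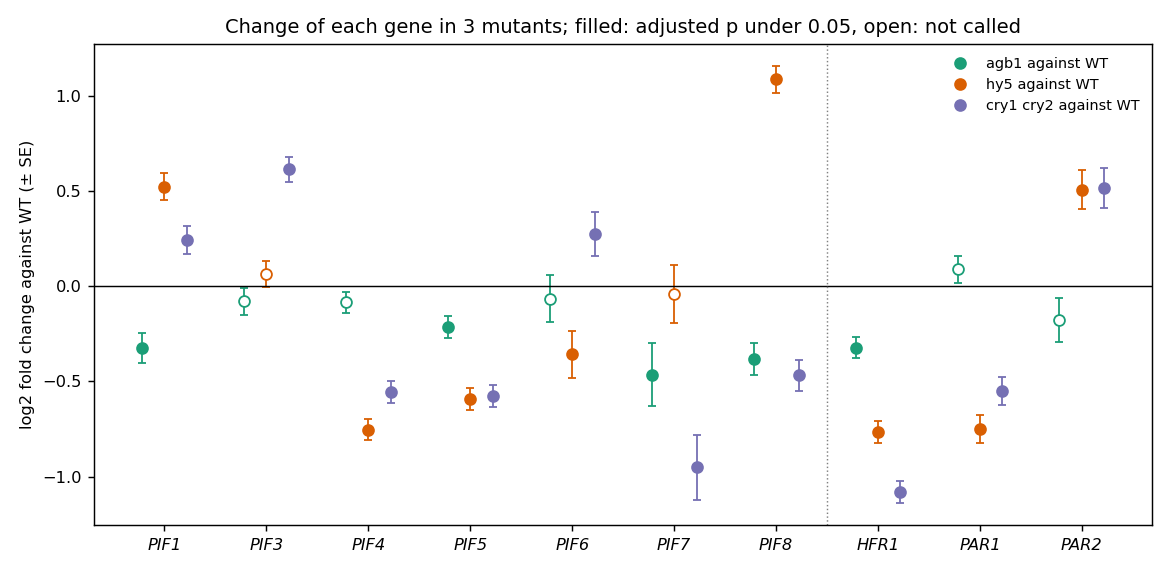
Log2 fold change against WT (y axis) with its standard error for the 10 genes in agb1, hy5 and cry1 cry2; filled points passed the test at adjusted p under 0.05, open points did not, and the dotted line divides PIFs from antagonists. All 3 comparisons share the same 2 WT libraries. PIF8 was called higher in hy5 (1.09) and lower in cry1 cry2 (-0.47), and HFR1 was called lower in all 3.

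Counted over the 10 genes, agb1 against WT gave 0 called higher and 5 called lower (PIF1, PIF5, PIF7, PIF8 and HFR1), against 8.76% and 8.41% of all tested loci. DESeq2 called 3 of the 10 in that comparison and 1 was called by the most-read model, HFR1. In hy5 3 genes were higher (PIF1, PIF8, PAR2) and 5 lower (PIF4, PIF5, PIF6, HFR1, PAR1), against 22.6% and 20.2% of all loci. In cry1 cry2 4 were higher (PIF1, PIF3, PIF6, PAR2) and 6 lower (PIF4, PIF5, PIF7, PIF8, HFR1, PAR1), against 25.6% and 25.8%. The median log2 fold change of the 10 genes was -0.20 in agb1, -0.51 in cry1 cry2 and -0.20 in hy5, and that of all tested loci was between -0.0027 and 0.0010. TMM scaling itself brings the median of all loci near 0, so that median is no independent baseline. With library sizes alone it was 0.18 in cry1 cry2 against WT. The comparisons of agb1, hy5 and cry1 cry2 with WT share their WT libraries.

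Comparisons between mutants do not use the WT means, although any 2 of them share a mutant. In agb1 against hy5, 4 genes were higher (PIF4, PIF5, HFR1, PAR1) and 4 lower (PIF1, PIF7, PIF8, PAR2), against 24.2% and 25.7% of all loci. The PIF7 call there (-0.42 ± 0.17, edgeR adjusted p = 0.0381) was lost in 5 of 16 alternatives, among them those without agb1 replicate 2 (-0.26, adjusted p = 0.289), hy5 replicate 1 (-0.39, adjusted p = 0.125) or hy5 replicate 2 (-0.45, adjusted p = 0.0962). In agb1 against cry1 cry2, 5 were higher (PIF4, PIF5, PIF7, HFR1, PAR1) and 4 lower (PIF1, PIF3, PIF6, PAR2), against 28.8% and 29.1%. In that comparison PIF7 (0.49 ± 0.19, adjusted p = 0.0295) was lost in 5 of 16 alternatives, with 0.24 for library sizes alone, 0.28 when agb1 replicate 1 was left out (adjusted p = 0.351) and 0.34 when cry1 cry2 replicate 1 was (adjusted p = 0.200). PIF6 (-0.34 ± 0.12, adjusted p = 0.0193) was lost in 4, with -0.23 by the most-read model (adjusted p = 0.399), -0.25 when agb1 replicate 1 was left out (adjusted p = 0.188) and -0.30 when cry1 cry2 replicate 2 was (adjusted p = 0.102). PIF5 (0.36 ± 0.06) missed the threshold under library sizes alone (0.12, adjusted p = 0.0928). In hy5 against cry1 cry2, 4 were higher (PIF1, PIF7, PIF8, HFR1) and 4 lower (PIF3, PIF4, PIF6, PAR1), against 23.2% and 20.6%. PIF1 (0.28 ± 0.07, adjusted p = 0.00193) missed the threshold under library sizes alone (0.10, adjusted p = 0.229) and by the most-read model (0.046, adjusted p = 0.862), and PIF5, not called, was called lower in hy5 with library sizes alone (-0.19, adjusted p = 0.0103). The PAR1 call in that comparison (-0.20 ± 0.08, edgeR adjusted p = 0.0449) was lost in 11 of 16 alternatives, each of the 8 left-out libraries among them (-0.25 to -0.15, adjusted p of 0.0507 to 0.277).

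A test of any difference among the 4 genotypes called all 10 genes, against 69.7% of all loci. The range of genotype mean log2 levels had a median of 0.79 over the 10 genes and 0.55 over all tested loci. It was widest for PIF8 (1.55, above 90.0% of loci), HFR1 (1.08, above 79.2%) and PIF7 (0.93, above 73.6%) and narrowest for PIF5 (0.59, above 53.6%).

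**Figure D3:**
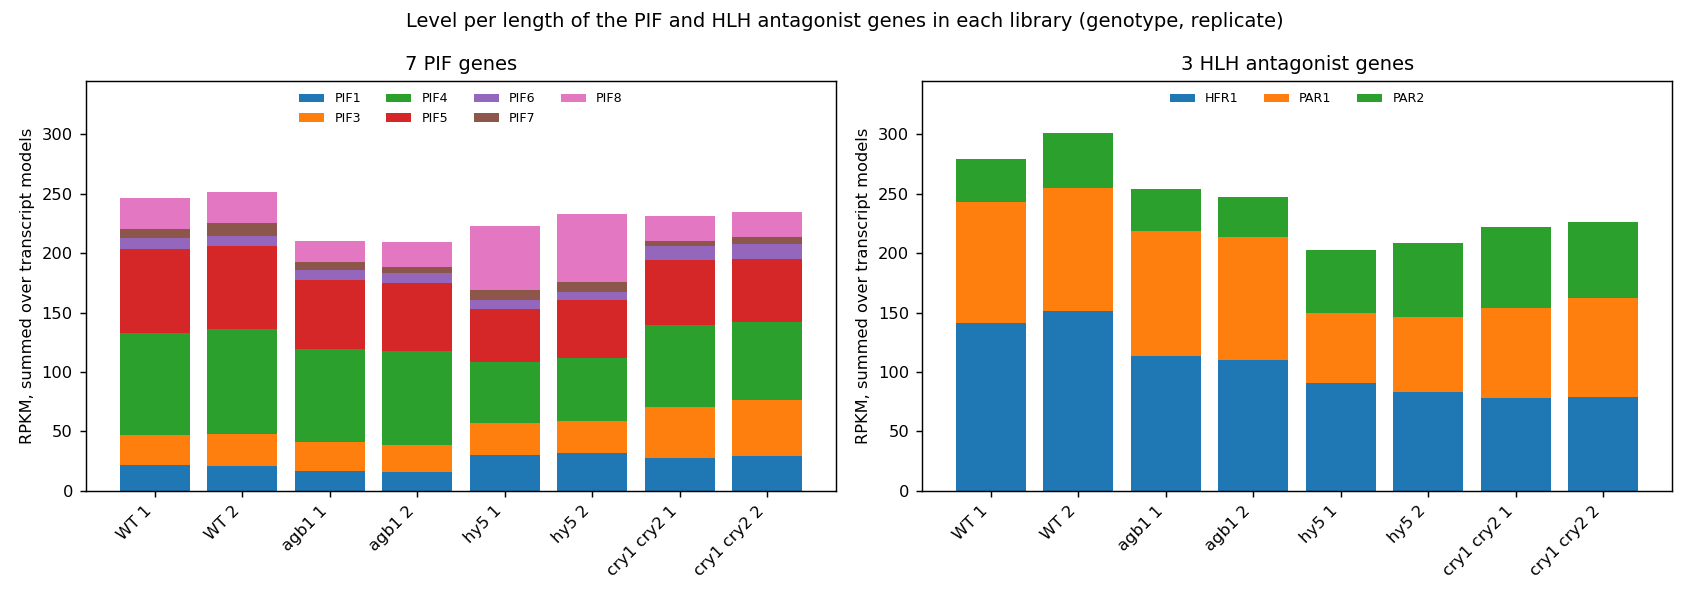
RPKM summed over transcript models (y axis, from 0), stacked by gene, for the 7 PIF genes (left) and the 3 antagonist genes (right) in each of the 8 libraries. On this scale, which lacks the TMM factors, the PIF total was 209 to 251, and the pink PIF8 block widened in hy5. Within libraries the antagonist total was above the PIF total in WT and agb1 and below it in hy5 and cry1 cry2.

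Summed over transcript models, RPKM of the PIF genes exceeded that of the antagonists in hy5 and cry1 cry2 but not in WT or agb1, a crossing that depends on that sum. RPKM is scaled to library total without the TMM factors, which were 0.940 and 0.931 in agb1 and 1.10 and 1.12 in cry1 cry2. The order of genotypes in each sum below therefore depends on the scaling, whereas a ratio within a library does not. The 7 PIF genes summed to 249 ± 3.29 RPKM in WT, 210 ± 0.644 in agb1, 233 ± 2.68 in cry1 cry2 and 228 ± 6.95 in hy5. The 3 antagonist genes summed to 290 ± 15.4 RPKM in WT, 251 ± 5.09 in agb1, 224 ± 3.14 in cry1 cry2 and 206 ± 4.30 in hy5. The ratio of antagonist to PIF RPKM was 1.13 and 1.199 in WT, 1.21 and 1.18 in agb1, 0.910 and 0.898 in hy5, and 0.960 and 0.964 in cry1 cry2, with no overlap between the first pair of genotypes and the second. By the most-read model of each locus the antagonists exceeded the PIFs in every library: the ratio was 3.71 and 3.83 in WT, 4.00 and 4.07 in agb1, 2.97 and 2.92 in hy5, and 3.42 and 3.61 in cry1 cry2, again lower in hy5 and cry1 cry2 than in WT and agb1. With 2 libraries a group no test was made of these sums, which describe transcripts and not proteins.

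The make-up of the PIF sum differed between mutants. PIF4 supplied 35.1 ± 0.263% of it in WT, 37.5 ± 0.448% in agb1, 28.9 ± 1.42% in cry1 cry2 and 22.8 ± 0.200% in hy5. PIF8 supplied 10.5 ± 0.307% in WT, 9.14 ± 0.965% in agb1, 9.17 ± 0.153% in cry1 cry2 and 24.3 ± 0.201% in hy5, so that in hy5 its share was the largest, just above that of PIF4. PIF3 supplied 10.4 ± 0.285% in WT, 11.2 ± 0.714% in agb1, 19.3 ± 1.11% in cry1 cry2 and 12.0 ± 0.533% in hy5.

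**Figure D4:**
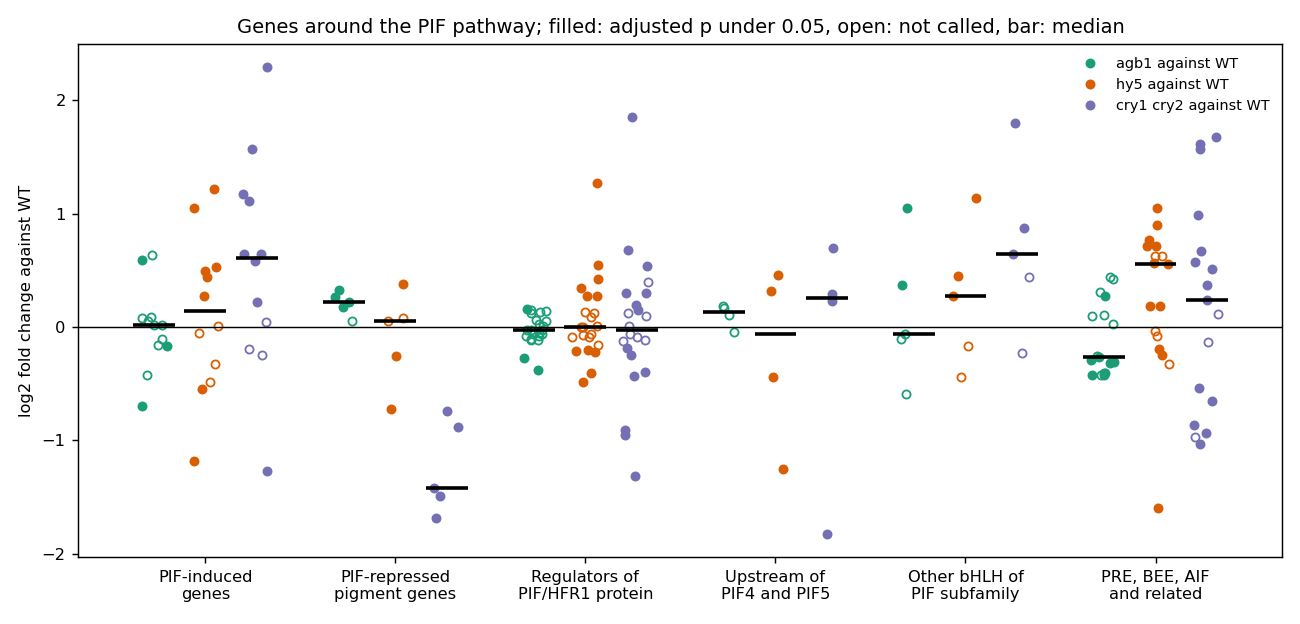
Log2 fold change against WT (y axis) of genes in 6 lists around the PIF pathway, by mutant; each point is a gene, filled where adjusted p was under 0.05, and black bars are medians. PIF-induced genes had their highest median in cry1 cry2 (0.61), with IAA29 at -1.28 there, and all 5 PIF-repressed pigment genes fell in that mutant.

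Among 12 genes known to be induced by PIFs, most rose in cry1 cry2. In that mutant PIF4, PIF5, PIF7 and PIF8 were called lower and PIF1, PIF3 and PIF6 higher, the PIF6 call holding in 4 of 16 alternatives. Counts of list members stand against the shares of all tested loci, which were 8.76% higher and 8.41% lower in agb1, 22.6% and 20.2% in hy5, and 25.6% and 25.8% in cry1 cry2. The lists were chosen with earlier results of these data known, so these counts are descriptions and not independent comparisons. In cry1 cry2, 8 of the 12 rose (66.7%) and 1 fell (8.33%; median 0.61): the auxin-response gene IAA19 (2.29 ± 0.06), the cell-wall gene XTR7 (1.17 ± 0.05) and the homeobox gene HAT2 (1.11 ± 0.06) rose, and IAA29, another auxin-response gene, fell (-1.28 ± 0.07). In hy5, 6 of the 12 rose and 2 fell (16.7%; median 0.14), with IAA19 at 1.22 ± 0.07 and HAT2 at 0.53 ± 0.06, and XTR7 (-1.18 ± 0.05) and IAA29 (-0.55 ± 0.06) lower. In agb1, 1 rose (8.33%, near the share of all loci; XTR7, 0.59 ± 0.05) and 2 fell (16.7%; CKX5, a cytokinin oxidase, -0.70 ± 0.09, and the sulfotransferase ST2A, -0.17 ± 0.05), and the median was 0.014. XTR7 was the list member whose call pointed down in hy5 and up in the other mutants.

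Of 5 pigment and plastid genes that PIFs repress, 5 fell in cry1 cry2 (median -1.42), among them the chelatase subunit GUN5 (-1.69 ± 0.06), the protochlorophyllide reductase PORC (-1.49 ± 0.09), the chloroplast regulator GLK1 (-1.42 ± 0.09) and HEMA1 (-0.89 ± 0.06), an early enzyme of tetrapyrrole synthesis. Shoot photosynthesis markers were also lowest in cry1 cry2, and their part in this was not tested. In hy5, 1 rose (PSY, phytoene synthase, 0.38 ± 0.06) and 2 fell (GLK1 -0.72 ± 0.08, GUN5 -0.26 ± 0.06). In agb1, 4 rose and 0 fell, by 0.32 ± 0.07 (PORC), 0.26 ± 0.07 (GLK1), 0.22 ± 0.06 (HEMA1) and 0.17 ± 0.06 (GUN5).

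Of 22 genes for proteins that bind, modify or degrade PIFs or HFR1, 7 rose and 7 fell in cry1 cry2 (31.8% each way). With 27.3% higher and 22.7% lower in hy5, and 4.55% and 9.09% in agb1, the shares of this list lay near those of all loci, so the values below are those of single genes. The DELLA gene RGL1, whose protein family sequesters PIFs, rose by 1.85 ± 0.08 there and by 1.27 ± 0.09 in hy5. SPA1, a partner of COP1 in degrading HFR1, changed by -1.32 ± 0.07 in cry1 cry2, the phytochrome gene PHYE by -0.95 ± 0.09 and PHYA by 0.68 ± 0.05. In hy5, 6 rose and 5 fell, including the F-box genes EBF1 (0.42 ± 0.06) and EBF2 (0.34 ± 0.05), which target PIF3 for degradation, and HMR (-0.49 ± 0.08), a phytochrome-signalling protein. These changes were not particular to hy5, since the cry1 cry2 libraries differed from WT in the same directions. EBF1 had 140 and 137 CPM in cry1 cry2 against 108 and 116 in WT, and EBF2 had 449 and 428 against 355 ± 13.9. HMR had 14.9 and 15.8 CPM in cry1 cry2 and 20.1 and 21.2 in hy5, against 27.2 and 30.8 in WT. In agb1, 1 rose (LRB2, an E3 ligase component, 0.15 ± 0.05) and 2 fell, EBF1 (-0.38 ± 0.06) and EBF2 (-0.27 ± 0.05).

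The evening complex (ELF3, ELF4, LUX) represses PIF4 and PIF5 at night, and BZR1 acts with PIF4 in growth. ELF4 changed by -1.25 ± 0.08 in hy5 and -1.83 ± 0.09 in cry1 cry2, and ELF3 by 0.31 ± 0.06 in hy5 and 0.69 ± 0.06 in cry1 cry2. LUX changed by -0.44 ± 0.06 in hy5 and 0.23 ± 0.05 in cry1 cry2, and BZR1 by 0.46 ± 0.07 in hy5 and 0.29 ± 0.07 in cry1 cry2. In agb1, 0 of these 4 genes were called.

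Of 7 other bHLH genes of the PIF subfamily, 5 could be tested, and 2 rose in agb1, 3 in cry1 cry2 and 3 in hy5, with 0 lower. SPT, a regulator of germination and cotyledon growth, rose by 0.37 ± 0.12 in agb1, by 0.45 ± 0.11 in hy5 and by 1.80 ± 0.10 in cry1 cry2. AT4G28790 had few reads, 17 and 13 in the WT libraries (0.712 ± 0.0673 CPM). Against that level hy5, with 34 and 24 reads, was higher by 1.14 ± 0.35 (edgeR adjusted p = 0.00964). The cry1 cry2 rise of 0.87 ± 0.37 (adjusted p = 0.0472) and the agb1 rise of 1.05 ± 0.36 (adjusted p = 0.0454) were close to the threshold. All 3 calls rest on the same few WT reads. PIL1, a shade marker that is also counted among the PIF-induced genes above, rose in hy5 (0.27 ± 0.10) and cry1 cry2 (0.65 ± 0.10).

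Around PAR1 and PIF4, growth-promoting bHLH proteins such as HBI1, BEE1 and CIB1 are held back by IBH1 and AIF proteins, which PRE proteins in turn bind. Of 18 such genes 17 were tested, and PRE1 is also counted among the PIF-induced genes above. In agb1, 1 rose and 8 fell (median -0.27), with BEE3 at -0.41 ± 0.07, HBI1 at -0.32 ± 0.06, CIB1 at -0.43 ± 0.08 and BEE1 at -0.41 ± 0.09. In hy5, 9 rose and 3 fell (median 0.56), with IBH1 at 0.90 ± 0.07, BEE1 at 0.76 ± 0.08, CIB1 at 0.72 ± 0.07 and AIF2 at 0.56 ± 0.07. In cry1 cry2, 9 rose and 5 fell (median 0.24), with PRE6 at 1.68 ± 0.11, PRE1 at 1.57 ± 0.13 and IBH1 at 0.99 ± 0.07 higher and HBI1 at -1.03 ± 0.06 lower. These counts were 5.88% higher and 47.1% lower in agb1, 52.9% and 17.6% in hy5, and 52.9% and 29.4% in cry1 cry2, of which the lower shares in hy5 and cry1 cry2 and the higher share in agb1 were near those of all loci.

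For the 3 genes of widest range, the loci of most similar profile over the 8 libraries were found by the root mean square difference of centred log2 CPM. AT4G15430 (difference 0.096), AT2G21185 (0.11) and the nucleobase transporter gene NCS1 (0.11) lay nearest to PIF8: NCS1 had 46.3 ± 0.428 CPM in WT, 39.5 ± 3.01 in agb1, 38.8 ± 0.0870 in cry1 cry2 and 96.6 ± 5.34 in hy5. BTS (0.071), which encodes an iron-responsive E3 ligase, UGT73B1 (0.079), a glycosyltransferase gene, and AT5G64170 (0.085) lay nearest to HFR1: BTS had 140 ± 6.30 CPM in WT, 107 ± 4.10 in agb1, 70.7 ± 1.72 in cry1 cry2 and 85.6 ± 8.35 in hy5. AT5G19151 (0.14), AT4G11521 (0.14) and AT1G72530 (0.15) lay nearest to PIF7, all at low levels.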

How the data were processed

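RNA-seq tables of 8 libraries (4 genotypes, 2 replicates each) were used. Per the file headers, the authors deposited read counts and RPKM for each of 48321 transcript models. Bowtie2 2.2.2 and TAIR10 are named in the submitters' processing notes, whereas no source used here states the counting tool or strand use. The authors' RPKM matched scaling to coding length within 3 bases in 100% of 34247 models. Models of a locus with the same coding sequence rarely had equal counts (2.10% of 15938 pairs, tolerance 0), and their squared difference over their sum averaged 1.01, as for a random division of reads; counts and RPKM were therefore summed per locus. The planned level per length was that of the most-read model, and the sum was the listed alternative.

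edgeR 4.0.16 in R 4.3.3 fitted all 8 libraries together (TMM, factors 0.931 to 1.12; filterByExpr, minimum count 10 and total 15; glmQLFTest). Adjusted p-values (Benjamini-Hochberg) cover all 20695 tested loci, called under 0.05, and the SE is the absolute log2 fold change over the square root of F. The steps were tested on simulated data. Named were the 10 genes, the 4 targeted genes, up to 4 called members of each list per comparison with the lowest p, and the 3 loci nearest each of the 3 genes of widest range. Members and lists were chosen with earlier results of these data known. Alternatives were other scalings, DESeq2 1.42.0, other filters, only the genotypes compared, a replicate block, the most-read model and each library left out. For a given comparison, some left-out libraries belong to genotypes outside it. Those alternatives leave its fold changes nearly as they were and are weak checks of it. At the smallest total, 3 reads equal 0.192 CPM.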

Additional observations from a re-analysis of the deposited data

How the results depend on the processing

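Of 60 gene and comparison pairs 48 were called, and 33 of these were called under all 16 alternatives; of the 12 not called, 10 were called under none. Over all gene values and alternatives, 878 kept direction and side of the threshold, 69 lost the call, 2 gained it and 11 changed sign. The 11 sign changes all concerned values not called. Leaving out each library in turn gave, in hy5 against cry1 cry2, PAR2 values of -0.14 to 0.11 and PIF5 values of -0.089 to 0.050, above 0 without replicate 1 of either mutant; PIF8 in agb1 against cry1 cry2 -0.017 to 0.20 (below 0 without agb1 replicate 2); PIF7 in hy5 against WT -0.28 to 0.21 (above 0 without WT replicate 2); and PIF6 in agb1 against WT -0.14 to 0.020 (above 0 without agb1 replicate 1). Library sizes alone gave -0.16 for PIF8 in agb1 against cry1 cry2, and the most-read model gave 0.12 for PIF3 in agb1 against WT, 0.027 for PIF3 in agb1 against hy5 and 0.039 for PIF6 in agb1 against WT. In agb1 against WT, where 5 of the 10 genes and 3553 loci were called, DESeq2 called 3 genes and 2124 loci, the most-read model 1 gene, and leaving out a library 3 to 5 genes and 2350 to 3682 loci, the fewest loci without WT replicate 2. Library sizes alone moved the median of all loci by 0.18 in cry1 cry2 against WT, -0.25 in agb1 against cry1 cry2 and -0.18 in hy5 against cry1 cry2. The share of calls that were higher moved from 49.8% to 70.7%, 49.7% to 27.5% and 53.0% to 28.2% in these comparisons, from 51.0% to 31.4% in agb1 against WT and from 48.5% to 38.4% in agb1 against hy5. The causes were not tested. The replicate block lost the calls of PIF6 in cry1 cry2 (0.28, edgeR adjusted p = 0.0559) and PIF7 in agb1 (-0.46, adjusted p = 0.0576) against WT and no other call of the 10 genes. Across all tested loci same-numbered libraries did not deviate together (r of -0.039 to 0.060). A correlation over all loci cannot exclude a shared batch that affects some genes. Depth limits PIF6 and PIF7 most, both under 12 CPM in every library.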
